A study of Mus musculus with 2 samples.

Results

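Venous endothelial cells line the vessels that carry blood away from the capillary bed. Here they were taken from 2 single-cell libraries of mouse lung by the genes they express, and 90 cells qualified, 52 from the mutant library and 38 from the control library. They stood among 493 mutant and 615 control endothelial cells, and among 4418 mutant and 4141 control cells of all kinds. A cell had to hold at least 8 unique molecular identifiers (UMIs, 1 per captured RNA molecule) over Pecam1, Cdh5, Cldn5, Egfl7, Ramp2 and Esam, the endothelial genes, and at most 2 over Epcam, Col1a2 and Ptprc, which mark other lineages. It then needed at least 5 UMIs over Vwf, Slc6a2, Nr2f2, Vcam1 and Prss23, and more than over the arterial genes Gja5, Bmx, Hey1, Dll4 and Gja4. It also had to hold under 5 over the capillary genes Car4, Ednrb, Fibin and Apln and at most 2 over the lymphatic genes Prox1, Mmrn1 and Ccl21a. The measured levels thus chose the cells, so the levels of these genes, and every comparison of venous with other endothelial cells, are descriptions.

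In the lung, veins return oxygenated blood to the heart, and venous endothelium is also where leukocytes commonly leave the blood. Venous identity is maintained by the transcription factor COUP-TFII, the product of Nr2f2, which restrains Notch signalling, while arterial identity depends on Notch. The venous receptor EphB4 and its arterial ligand ephrin B2 mark the opposite sides of this choice. Von Willebrand factor, stored in endothelial granules and released to capture platelets, is made most strongly in the larger vessels of the lung and little in its capillaries.

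Both libraries came from lungs at postnatal day 10, sorted by FACS to contain epithelial, immune, endothelial and mesenchymal cells and run on a droplet platform that counts the 3' ends of transcripts. The title of the mutant library names Nkx2-1;Aqp5 and that of the control library Nkx2-1, while their genotypes are given only as mutant and control; the labels state neither the alleles, the driver of any recombination nor the number of animals pooled. Nkx2-1, which encodes an epithelial transcription factor, is named in both titles. Over all kept cells it had 24.7 counts per 1000000 (CPM; 95% interval 23.3 to 26.2) in the mutant library and 212 CPM (207 to 218) in the control library, with 0 UMIs in mutant and 1 UMI in control venous cells. Aqp5, named only in the mutant title, had 181 CPM over all kept mutant cells and 554 CPM over control cells. It had 2 UMIs in the venous cells of each library. The labels do not say which gene, or which part of it, was altered, so a 3' tag count does not check a deletion.

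Each group is a single library, without replicates, so ratios compare these libraries, no p-value was computed, and a difference between a mutant and a control animal cannot be told apart from one between any pair of libraries. All intervals are exact 95% intervals that cover counting error only. Venous cells held 289974 UMIs in the mutant library, with a median of 5205 per cell (range 3901 to 11217), and 237608 UMIs in the control library, with a median of 5242 (2643 to 14903). Their depth therefore differed little, unlike that of the whole libraries, whose barcodes had medians of 8305 UMIs in the mutant and 5943 in the control. The libraries shared 27 barcode sequences, 3 of which were venous cells in the mutant and 0 in the control.

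Of the 90 cells, 5 also held over 40 UMIs of another cell type's markers. In the mutant library 1 of them had 90 UMIs of mural genes and 1 had 221 of alveolar epithelial genes. In the control library 1 had 405 UMIs of immune genes, 1 had 48 of mural genes, and 1 had 2363 of alveolar and 51 of immune genes. A doublet caller marked none of these 5, nor any other venous cell. In the remaining 50 mutant and 35 control cells the highest values in a cell were 7 and 27 UMIs of alveolar genes, 14 and 19 of immune genes, and 6 and 3 of mural genes. Where leaving out the 5 cells ended a call or turned a direction of a gene or list described here, the value without them is given.

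Vwf, the gene of von Willebrand factor, carried most of the signal that chose the cells. It lies on chromosome 6 of mm10 (125546774 to 125686679, plus strand). At least 1 Vwf UMI was seen in 46 of 52 mutant and 33 of 38 control venous cells, with medians of 6.5 and 8.5 UMIs and highest values of 18 and 45. Summed over cells it stood at 1300 CPM (1172 to 1438) in mutant and 1696 CPM (1535 to 1870) in control venous cells. In arterial cells it had 153 CPM in the mutant and 125 CPM in the control, and in the remaining endothelial cells, which are mostly capillary, 4.43 and 12 CPM. After every cell was thinned to 2000 UMIs, 75% of mutant and 81.6% of control venous cells had a Vwf UMI, against 0.840% and 2.48% of those remaining endothelial cells, whose median depths were 5076 and 4112 UMIs.

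Slc6a2, which encodes the noradrenaline transporter, marked a subset. It lies on chromosome 8 (92960079 to 93001667, plus strand). A UMI was seen in 22 of 52 mutant and 17 of 38 control venous cells, and each of these cells also held Vwf. It had 221 CPM in mutant and 227 CPM in control venous cells, and 0 UMIs in the arterial cells of both libraries. The Car4-high capillary cells held 14 UMIs in 2 mutant cells and 2 UMIs in 1 control cell, and the remaining endothelial cells held 0 and 1 UMI. After thinning, 30.8% of mutant and 34.2% of control venous cells held the gene, against 0 of 238 and 0 of 323 of the remaining cells.

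Nr2f2 (chromosome 7, 70351944 to 70366735, minus strand) was seen in 34 mutant and 27 control venous cells, at 283 CPM and 219 CPM. Prss23, a secreted serine protease gene (chromosome 7, 89507783 to 89527187, minus strand), was seen in 45 and 33, at 697 and 1014 CPM. Prss23 was not limited to the venous cells, with 96.1 CPM in the mutant and 103 CPM in the control among the remaining endothelial cells. Vcam1, which encodes a leukocyte adhesion molecule and is listed among the venous markers, had 2 UMIs in the 52 mutant cells and 0 in the 38 control cells. In the control a floor of 3 counts corresponds to 7.89% of cells, which is not an exact interval. Vcam1 therefore gave no support to the name venous, and the cells rest in practice on Vwf and Prss23, which made up 51.9% and 27.8% of the 5-gene sum in the mutant and 53.7% and 32.1% in the control. No cell held all 5 genes, and 18 mutant and 12 control cells held 4. At the other end, 4 mutant and 3 control cells held 1, which was Vwf in each. These cells also held 5 to 8 UMIs of the 5 arterial genes in the mutant and 8 to 27 in the control, so the name venous is weakest for them.

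**Figure D1:**
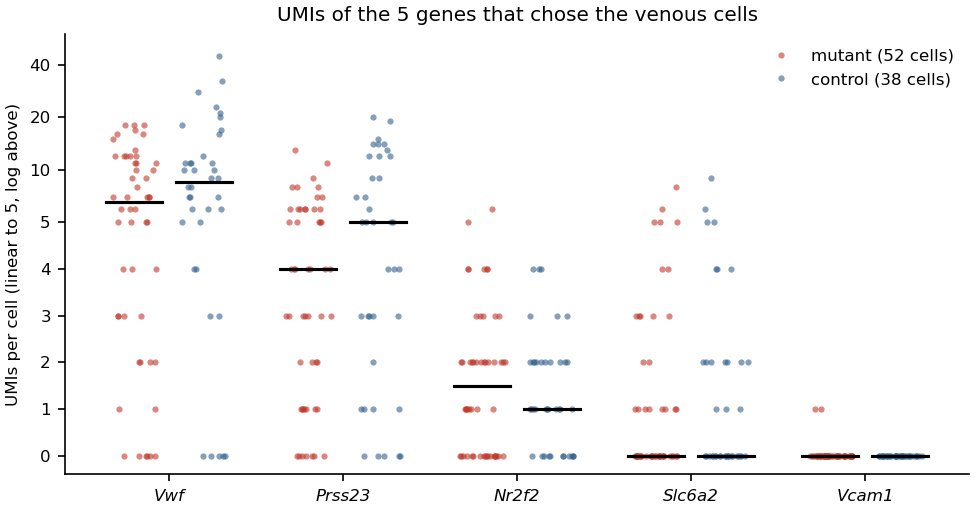
UMIs per cell of the 5 genes used to choose venous cells, with 1 point per cell (52 mutant, 38 control) and a bar at the median. Vwf medians are 6.5 and 8.5 UMIs, Slc6a2 medians are 0 in both libraries, and Vcam1 was seen in only 2 mutant cells.

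Of 9 further venous genes that the choice did not use, 7 had their highest level among the blood endothelial classes in venous cells of both libraries, and Selp and Ackr1 were nearly or fully absent. Ephb4, Nrp2, Ackr3, Bst1, Adgrg6, Cpe, Selp, Ackr1 and Amigo2 together reached 1455 CPM (1320 to 1601) in mutant and 1763 CPM (1599 to 1941) in control venous cells. The same sum was 328 and 259 CPM in arterial cells, 211 and 167 CPM in Car4-high capillary cells, and 253 and 256 CPM in the remaining endothelial cells. At least 2 UMIs of these genes were held by 50 of 52 mutant and 36 of 38 control venous cells. These levels go in the direction of the label venous, though they come from the same cells and are a description. Arterial genes as a list were not low in venous cells, which include the 4 mutant and 3 control cells with Vwf alone. The 22 genes of the list summed to 6166 CPM in mutant and 5648 CPM in control venous cells. They had 7318 and 6973 CPM in arterial cells and 3088 and 2364 CPM in the remaining cells. Of 16 measured, 4 were at least 2-fold higher in venous than in all other endothelial cells but lymphatic ones, and 4 lower, in both libraries. Over all genes these shares were 4.95% and 3.04%.

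Adgrg6, an adhesion G protein-coupled receptor gene, had 352 CPM in mutant and 278 CPM in control venous cells, against 29.2 and 25 CPM in the other blood endothelial cells, that is all endothelial cells but venous and lymphatic. Amigo2, a transmembrane adhesion protein gene, had 224 and 160 CPM, against 15.4 and 14.3 CPM. Nrp2, whose product is a co-receptor for semaphorins and vascular endothelial growth factors, had 103 and 58.9 CPM, against 15.2 and 3.46 CPM in arterial cells. Ackr3, a scavenging receptor for the chemokine CXCL12, had 310 and 446 CPM, and Bst1, an ectoenzyme gene, 44.8 and 42.1 CPM. Ephb4 was the least selective, with 214 and 189 CPM in venous cells and 141 and 115 CPM in arterial cells.

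Some adhesion genes known from venules were at or near 0. Ackr1, the atypical chemokine receptor of venules, had 0 UMIs in the venous cells of both libraries. Sele, E-selectin, also had 0, and Selp, P-selectin, had 2 UMIs in the mutant and 3 in the control. The floor of 3 counts stands at 10.3 CPM in mutant and 12.6 CPM in control venous cells, so lower levels were not detectable at this depth. Of the 18 measured genes of the leukocyte adhesion list, 4 (Jam2, Ackr3, Il33 and Il1r1) were at least 2-fold higher in venous than in other blood endothelial cells in both libraries and 3 (Cd34, Ackr2 and Cxcl12) lower, against 4.95% and 3.04% of all genes.

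**Figure D2:**
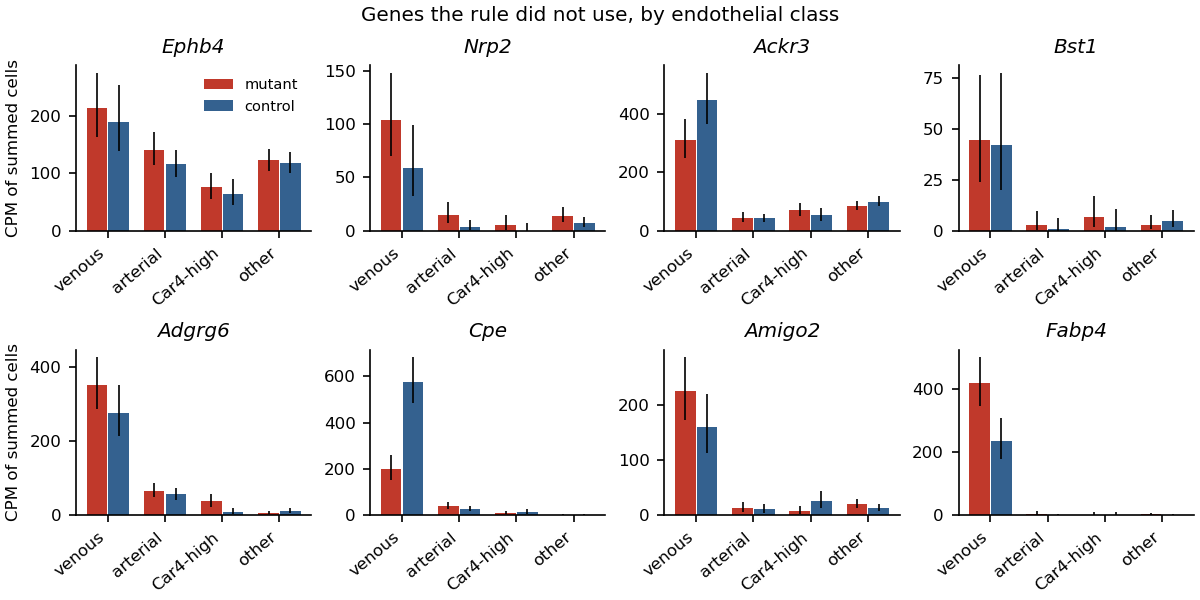
Level of 8 genes not used to choose the cells, in CPM of summed cells, by endothelial class, with the mutant bar left of the control bar and exact 95% counting intervals. Venous bars stand highest in every panel, and Cpe is the 1 gene of the 8 whose venous level is lower in the mutant (200 CPM) than in the control (577 CPM) by more than 2-fold.

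The cells were not uniform. Of the members, 22 mutant and 8 control cells had a venous sum of 5 to 9 UMIs, and 30 in each library had 10 or more. The 9 outside genes had 856 CPM (700 to 1037) in the 22 mutant cells and 654 CPM (438 to 939) in the 8 control cells of the lower range, against 1894 CPM and 2018 CPM in the higher range. In the 24 mutant and 15 control cells just outside the choice, with a sum of 3 to 4, they had 290 and 303 CPM, close to the remaining endothelial cells. Cells near the limit were thus lower in venous genes and more of them were mutant.

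Members with and without a Slc6a2 UMI also differed. Slc6a2, Hey1 and Gja4 are among the genes that chose the cells, so their values here are a description of the choice. Slc6a2 had a median of 0 UMIs per cell in both libraries, so a cell without a UMI can still express it. Members without a Slc6a2 UMI, 30 in the mutant and 21 in the control, held 15 and 12 UMIs of the arterial transcription factor gene Hey1, while members with Slc6a2 held 0 and 0. Gja4, an arterial connexin gene, had 211 and 171 CPM in the cells without Slc6a2, against 75.2 and 45.9 CPM in those with it. Cytl1, a secreted cytokine-like protein gene, had 41 and 21 UMIs without Slc6a2 and 1 and 1 with it. The 9 outside venous genes still stood at 1034 CPM in mutant and 1445 CPM in control cells without Slc6a2, and at 2055 and 2140 CPM in those with it.

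**Figure D3:**
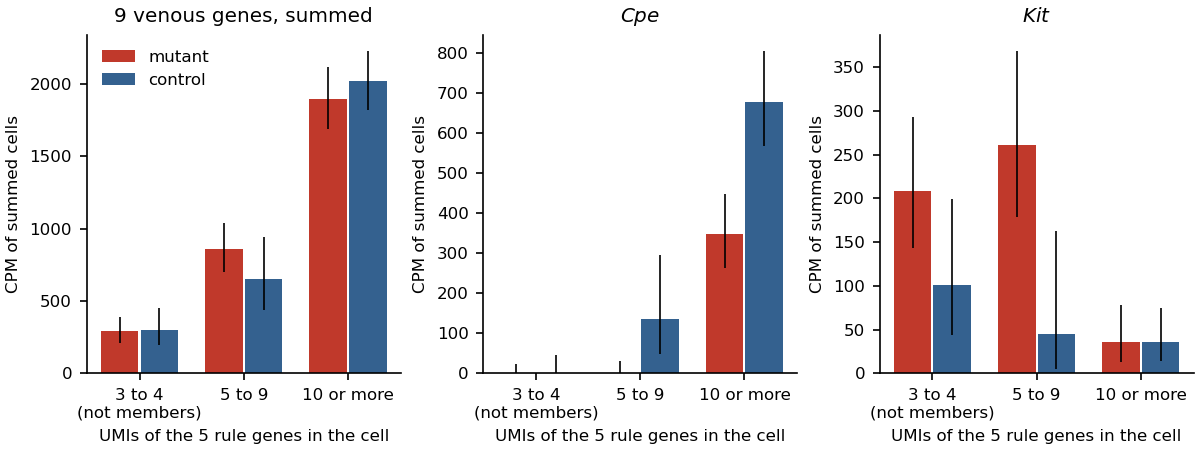
CPM of the 9 outside venous genes (left), Cpe (middle) and Kit (right) in cells grouped by their UMIs of the 5 choosing genes, with exact 95% counting intervals. The 9 genes climb with the sum in both libraries, Cpe is 0 in mutant cells of the 5 to 9 range, and Kit is high there in mutant cells but equal between libraries at 10 or more.

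Across the transcriptome, venous cells had 523 genes at least 2-fold higher than the other blood endothelial cells in both libraries, which is 4.95% of 10576 genes. They had 321 genes at least 2-fold lower in both libraries, 3.04%. Fabp4, a fatty acid-binding protein gene on chromosome 3 (10204088 to 10208576, minus strand), stood apart most. It had 121 UMIs in 14 of 52 mutant venous cells and 56 UMIs in 13 of 38 control venous cells, or 417 and 236 CPM, against 3 and 1.07 CPM in the other blood endothelial cells. It was thus nearly confined to venous cells among the endothelial classes, but most venous cells held none.

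Tshz2, a zinc finger protein gene, had 221 CPM in mutant and 189 CPM in control venous cells, against 8.24 and 6.80 CPM in the other cells. Car8, a carbonic anhydrase-related protein gene, had 376 and 332 CPM, against 25.8 and 9.30 CPM. Further genes among the 15 largest ratios have roles in clotting, complement or inflammation. Fgl2, a prothrombinase gene, had 65.5 and 152 CPM against 2.62 and 2.86 CPM, and Cd59a, an inhibitor of complement lysis, 75.9 and 173 CPM against 7.12 and 19.0 CPM. Ptgs1, cyclooxygenase 1, had 110 and 164 CPM against 13.9 and 19.7 CPM, and Lbp, the lipopolysaccharide-binding protein gene, 155 and 215 CPM against 19.1 and 16.1 CPM. Of 17 measured haemostasis genes 4 were at least 2-fold higher in both libraries (Procr, Serpine2, Entpd1 and Ptgs1) and 2 lower. Over all genes 4.95% were higher and 3.04% lower.

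Eln, the elastin gene, had 5083 CPM in mutant and 7374 CPM in control venous cells, against 535 and 637 CPM in the other blood endothelial cells. It was held by 49 of 52 and 38 of 38 cells, with medians of 9.0 and 32.5 UMIs per cell. Fbln5, which is needed for elastic fibre assembly, had 1104 and 1797 CPM against 123 and 179 CPM. Bgn, a small proteoglycan gene, had 324 and 728 CPM against 39.0 and 72.3 CPM, and Mmp2, gelatinase A, 110 and 114 CPM against 5.99 and 6.44 CPM. Of 28 matrix genes 12 were at least 2-fold higher in venous cells in both libraries and 3 lower, against 4.95% and 3.04% of all genes, the lower ones being the basement membrane collagens Col4a1 and Col4a2 and the matricellular gene Sparcl1. Arterial cells came next for Eln, with 1247 and 1213 CPM. Postn, a matricellular gene that also met the limit, had 25 of its 26 mutant and all 26 control UMIs in 1 cell of each library. In the mutant it was 0.59 lower on the log2 scale in venous than in other blood endothelial cells once the 5 mixed cells were left out.

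Of 9 measured genes of the Car4-high capillary list 7 were at least 2-fold lower in venous cells in both libraries, and of 10 of the Plvap capillary list 2 were (Lpl and Sema3c), against 3.04% of all genes. Igfbp7, an insulin-like growth factor-binding protein gene, had 166 CPM in mutant and 168 CPM in control venous cells, against 1220 and 1700 CPM in the other blood endothelial cells. Emp2, a membrane protein gene, had 79.3 and 50.5 CPM against 476 and 618 CPM, and Kdr, the main receptor of vascular endothelial growth factor, 159 and 147 CPM against 524 and 399 CPM. Clec1a, a C-type lectin gene, had 124 and 84.2 CPM against 749 and 682 CPM. Adrb1, the beta-1 adrenergic receptor gene, had 24.1 and 16.8 CPM against 188 and 142 CPM.

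Cell cycle transcripts were counted per cell. After thinning, over 3 UMIs of S and G2/M genes were held by 18 of 52 mutant venous cells (34.6%; 22.0 to 49.1) and 14 of 38 control venous cells (36.8%; 21.8 to 54.0). The remaining endothelial cells had 62.2% (55.7 to 68.4) in the mutant and 48.3% (42.7 to 53.9) in the control, and the Car4-high capillary cells 39.8% and 37.2%. The intervals of venous and remaining endothelial cells were apart in the mutant and overlapped in the control. Of 39 measured S phase genes 10 were at least 2-fold lower in venous than in other blood endothelial cells in both libraries and 0 higher, and of 51 G2 and M phase genes 3 were lower and 0 higher, against 3.04% and 4.95% of all genes.

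Venous cells were 10.5% (7.98 to 13.6) of mutant and 6.18% (4.41 to 8.38) of control endothelial cells. With a venous sum of at least 10, the shares were 6.09% in the mutant and 4.88% in the control, so they stood closer together away from the limit of the choice. These are shares of endothelial cells; the sort set the proportions between lineages.

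Within venous cells the mutant and control libraries were then compared gene by gene. A gene was called measured where the 2 libraries together held 20 UMIs or more, and 4203 genes were. Of these, 491 (11.7%) were at least 2-fold higher and 162 (3.85%) at least 2-fold lower in mutant venous cells. The interval also left out 1 for 352 (8.37%) and 127 (3.02%). Without the 5 mixed cells the counts were 425 and 136. The same limit called 741 (7.16%) and 272 (2.63%) of 10349 genes in the other blood endothelial cells, 571 (7.47%) and 262 (3.43%) of 7645 in arterial cells, and 13% and 12.6% of 15215 in cells outside the endothelial gate. These classes hold more UMIs than the venous cells, and the share called depends on counts. In venous cells 18% were higher among genes with at least 5 UMIs and 6.61% with at least 50. The shares therefore do not show which class differed more between the libraries. The median gene was 0.17 higher in the mutant on the log2 scale (quartiles -0.22 and 0.62), so list medians are read against that value. Scaling by a trimmed mean of ratios shifted all genes by 0.18 and gave 340 higher (8.09%) and 240 lower (5.71%), so that 58.6% of the genes past 2-fold were higher, against 75.2% with totals. Scaling by the median of ratios, a shift of 0.13, gave 65.3%.

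Immediate early and stress genes were lower together in mutant venous cells. These genes are switched on within minutes by growth factors, shear, injury or cell handling. All 23 measured of the list had ratios below 1, and 15 were at least 2-fold lower (background 3.85%). Without the 5 mixed cells 21 were below 1 and 14 at least 2-fold lower, and Klf6 and Cebpb were above 1. With an other-lineage sum of 0, and with the mean of per-cell CPM, 21 were also below 1. Requiring at least 2 of the 5 choosing genes gave 22 of 23 below 1, leaving out cycling cells 20 of 21, and genes with at least 5 UMIs 24 of 25. The median log2 ratio was -1.54, against 0.17 for all genes, and it was -0.68 in the other blood endothelial cells. Summed over the list, mutant venous cells had 4811 CPM (4562 to 5070) and control venous cells 13005 CPM (12550 to 13471). The same sum was 5353 and 7329 CPM in arterial cells, 5928 and 9778 CPM in Car4-high capillary cells, and 4904 and 7380 CPM in the remaining endothelial cells. Control venous cells were thus the highest class, with a median of 63.5 UMIs per cell (12 to 226) against 17.5 (4 to 108) in mutant venous cells.

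Egr1, a zinc finger transcription factor gene, had 44.8 CPM in mutant and 450 CPM in control venous cells, a ratio of 0.10 (0.051 to 0.18). A UMI was seen in 8 of 52 mutant and 27 of 38 control cells, so the difference lay in many cells. Junb had 224 and 1279 CPM, a ratio of 0.18 (0.13 to 0.23), Jun 372 and 1604 CPM, a ratio of 0.23 (0.19 to 0.29), and Fos 255 and 1141 CPM, a ratio of 0.22 (0.17 to 0.29). These encode subunits of the transcription factor AP-1. In the other blood endothelial cells the ratio was 0.56 for Junb, 0.68 for Jun and 0.82 for Fos. Zfp36, which encodes an RNA-binding protein that destabilises cytokine transcripts, had 72.4 and 396 CPM in venous cells, and Btg2, an antiproliferative gene, 279 and 732 CPM.

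The heat shock genes Hspb1 and Hspa1a were also lower. Hspb1 had 93.1 CPM in mutant and 501 CPM in control venous cells, a ratio of 0.19 (0.12 to 0.28). Hspa1a had 93.1 and 939 CPM, a ratio of 0.099 (0.064 to 0.15), and 17 of its 27 mutant UMIs were in 1 cell, while 19 of 38 control cells held it. Hspa1a and its near-identical neighbour Hspa1b can share reads, so their split is uncertain. Hspa1a was also low in the other blood endothelial cells of the mutant, at a ratio of 0.21. Nearer to 1 in the list were Klf6, Dusp1 and Cebpb, transcription factor and phosphatase genes, with ratios of 0.98, 0.85 and 0.82. Without the mixed cells these were 1.05, 0.82 and 1.90, the last from 15 mutant and 6 control UMIs of Cebpb.

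The list was also lower in each subset of the cells read. Its median less that of all genes was -1.70 in all venous cells, -1.42 without the 5 mixed cells, -2.01 in the 30 and 30 cells with a venous sum of at least 10 and -1.90 in cells with Slc6a2. How long each library's cells were held before capture is not in the labels, and its part in this difference was not tested.

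Of the 18 measured venous identity genes, Cpe and Cd200 were at least 2-fold lower in mutant venous cells. The interval lay below 1 for 6, namely these and Vwf, Prss23, Ackr3 (0.70; 0.52 to 0.93) and Csrp2 (0.79; 0.64 to 0.98), and above 1 for 0. Cpe, carboxypeptidase E, an enzyme that trims peptide precursors, had 200 CPM in mutant and 577 CPM in control venous cells, a ratio of 0.35 (0.25 to 0.47). It was held by 17 of 52 mutant and 26 of 38 control cells. In cells with a venous sum of at least 10 its log2 ratio was -0.97, and in cells with Slc6a2 -1.33, so it was lower there too. Cd200, an immune-inhibitory surface protein gene, had 307 and 732 CPM, a ratio of 0.42 (0.32 to 0.54), and 0.999 in the other blood endothelial cells. At a venous sum of at least 10 its log2 ratio was -0.95, and 0 of 16 venous identity genes were then at least 2-fold lower. No venous identity gene was at least 2-fold higher, and the list median was 0.05, against 0.17 for all genes. Without the mixed cells the list median was -0.04, with 7 of 17 genes above a ratio of 1 and 10 below, against 0.13 for all genes. The other ratios in the list ran up to 1.76 for Nrp2 and 1.91 for Plat, with intervals that held 1.

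Vwf had a ratio of 0.77 (0.66 to 0.88) and Prss23 0.69 (0.57 to 0.83), but these genes chose the cells, and the mutant held more cells near the limit. In cells with a venous sum of at least 10 their log2 ratios were -0.11 and -0.32, against -0.38 and -0.54 in all members. Slc6a2 had a ratio of 0.97 (0.67 to 1.42) and Nr2f2 1.29 (0.90 to 1.87). Lyve1, a hyaluronan receptor gene, had 741 CPM in each library.

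Several genes linked to coagulation and adhesion differed. Thbd, which encodes thrombomodulin, the endothelial cofactor that turns thrombin towards protein C, had 814 CPM in mutant and 450 CPM in control venous cells, a ratio of 1.81 (1.43 to 2.29). Procr, the protein C receptor gene, had 62.1 and 185 CPM, a ratio of 0.34 (0.18 to 0.59), and 0.47 in the other blood endothelial cells. Icam1, a leukocyte adhesion molecule gene that is also induced by inflammatory signals, had 65.5 and 181 CPM, a ratio of 0.36 (0.20 to 0.63). Jam2, a junctional adhesion molecule gene, had 524 and 185 CPM, a ratio of 2.83 (2.01 to 4.06), against 2.23 in the other cells. Of 14 measured haemostasis genes 0 were at least 2-fold higher and 2 at least 2-fold lower, Procr and Thbs1, against 11.7% and 3.85% of all genes. Thbs1 had 4 and 23 UMIs, and its log2 ratio was 0.02 without the mixed cells. Of 13 adhesion genes 3 were higher (Jam2, Lifr and Il1r1) and 2 lower (Icam1 and Il33). Without the mixed cells Il33 had 11 and 8 UMIs and a ratio of 1.04, which left 1 lower.

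Abundant genes, those with at least 200 CPM in a library, were then ranked by ratio. Genes that moved alike in the other blood endothelial cells were first set apart, some of them with larger ratios than genes ranked here. The 5 largest ratios among the genes left were of genes that the other blood endothelial cells expressed at higher levels. Scn7a, a sodium channel gene, had 541 CPM in mutant and 96.8 CPM in control venous cells, a ratio of 5.59 (3.60 to 9.08), against 1554 and 786 CPM in the other blood endothelial cells. It was held by 33 of 52 mutant and 10 of 38 control venous cells. Nostrin, which encodes a protein that traffics endothelial nitric oxide synthase, had 231 and 37.9 CPM, a ratio of 6.10 (3.03 to 13.9), against 401 and 280 CPM. Ly6a and Ly6c1, surface protein genes of the Ly6 family, had 797 and 173 CPM and 483 and 118 CPM, with ratios of 4.62 (3.30 to 6.60) and 4.10 (2.72 to 6.39), against 1058 and 640 CPM and 737 and 384 CPM in the other cells. The Ly6 genes have close copies among which reads can be split. Efnb2, the arterial ligand of EphB4, had 231 and 71.5 CPM, a ratio of 3.23 (1.87 to 5.87), against 268 and 180 CPM.

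These differences were also present away from the limit of the choice. In cells with a venous sum of at least 10 the log2 ratio was 2.26 for Scn7a, 2.21 for Nostrin, 1.70 for Ly6a, 1.29 for Ly6c1 and 1.63 for Efnb2, and in cells with Slc6a2 it was 1.86, 2.86, 1.62, 1.67 and 1.24. The other blood endothelial cells were also higher in the mutant for each, at ratios of 1.98 for Scn7a, 1.43 for Nostrin, 1.65 for Ly6a, 1.92 for Ly6c1 and 1.49 for Efnb2, and the difference between the classes was not tested. Kit, a receptor tyrosine kinase gene of capillaries, differed from them. It had 131 and 37.9 CPM, a ratio of 3.46 (1.64 to 8.14), but a log2 ratio of -0.01 at a venous sum of at least 10, since 32 of its 38 mutant UMIs lay in the cells of the 5 to 9 range.

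The lists of the other blood vessel types and of granules and vascular tone are read against 11.7% of all genes higher and 3.85% lower. Of 16 measured arterial genes Efnb2 alone was at least 2-fold higher and 0 lower, with a median of 0.32 on the log2 scale. This varied with the choice of cells. Requiring at least 2 of the 5 choosing genes gave 5 of 13 higher, with a median of 0.66. Thinning before the choice gave 4 of 16 with 0.51, and a venous sum of at least 10 gave 2 of 13 with 0.05. With an other-lineage sum of 0 the direction turned. The median was then -0.14, with 7 genes above a ratio of 1 and 9 below, and 1 of 16 past 2-fold each way. Of 7 measured genes of the Car4-high capillary list, Kitl, the ligand of Kit, Nckap5 and Prx were higher and 0 lower, with a median of 0.65, and the same list had a median of 0.08 in the other blood endothelial cells. The interval left out 1 for only 2 of the 7 genes. The venous median also varied with the setting. It was 0.66 with an other-lineage sum of 0, 0.43 without the mixed cells and 0.21 with the mean of per-cell CPM. At a venous sum of at least 8 it was 0.09, over 5 genes. Kit was the 1 higher gene among 9 of the Plvap capillary list, whose median was 0.16. Of 9 genes of Weibel-Palade bodies, the granules that store von Willebrand factor, Rab27a, a granule transport gene, was higher, and of 15 vascular tone genes Calcrl and Ramp3 were. Calcrl had a ratio of 1.93 without the mixed cells.

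Further genes among the 12 largest ratios are given with the same genes set apart. They included Lifr (3.17), a cytokine receptor gene, and Ltbp1 (2.77), which encodes a binding protein of latent TGF-beta. Ktn1 (2.70), a kinesin-binding protein gene, and Aff4 (2.69), a transcription elongation gene, followed. The rest were Wfdc1 (2.58), a gene of a secreted protein with a protease inhibitor domain, Hmcn1 (2.56), an extracellular matrix protein gene, and Tns1 (2.54), a focal adhesion gene. Hmcn1 was held by 49 of 52 mutant and 27 of 38 control cells, at 721 and 282 CPM. Ramp3, a gene of an adrenomedullin receptor subunit, had 134 and 29.5 CPM, and Calcrl, its partner receptor, 1673 and 825 CPM, a ratio of 2.03 (1.71 to 2.41) that was 1.93 in the other cells.

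**Figure D4:**
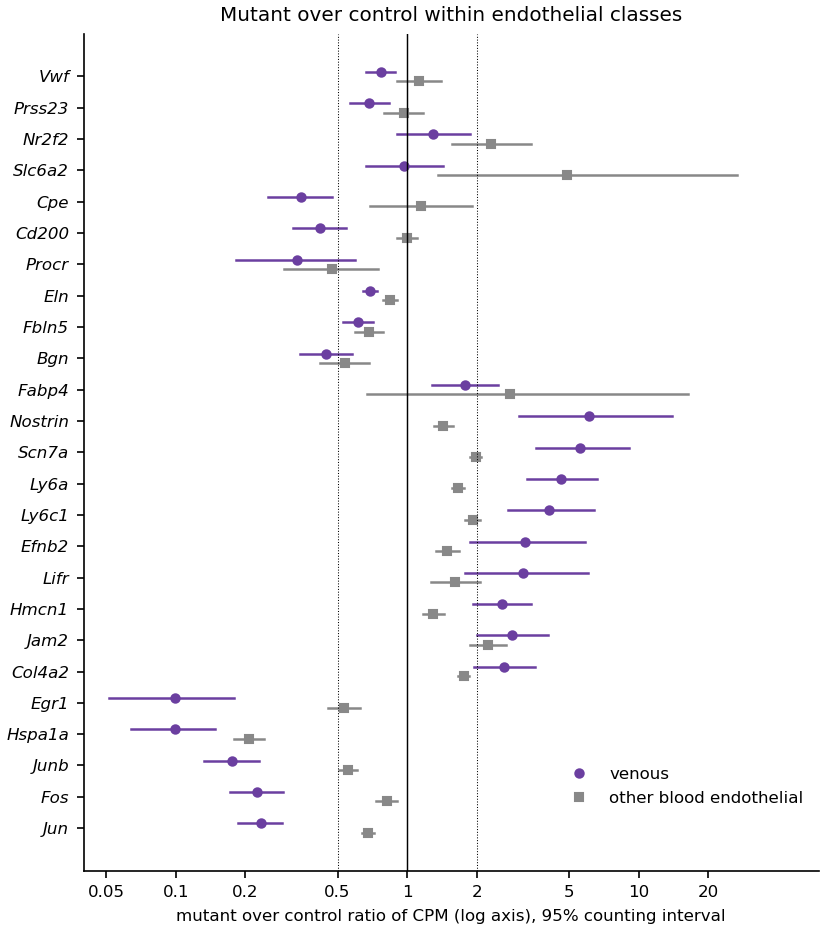
Mutant over control ratio of CPM for 25 genes on a log axis, in venous cells (circles) and in the other blood endothelial cells (squares), with exact 95% counting intervals and dotted lines at 2-fold. Egr1 (0.10) to Jun (0.23) lie far left in venous cells and nearer 1 in the other cells, and Nostrin (6.10) and Scn7a (5.59) lie farthest right.

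Single matrix genes went both ways. Eln had a ratio of 0.69 (0.64 to 0.74), Fbln5 0.61 (0.53 to 0.71) and Bgn 0.45 (0.34 to 0.58) in venous cells, and 0.84, 0.69 and 0.54 in the other blood endothelial cells. Eln stood closer to parity at a venous sum of at least 10, with a log2 ratio of -0.09 against -0.54 in all members. Col4a1 and Col4a2, the chains of the basement membrane collagen, had 566 and 236 CPM and 638 and 244 CPM, ratios of 2.40 (1.76 to 3.31) and 2.61 (1.94 to 3.57), against 1.74 and 1.75 in the other cells. Mgp, an inhibitor of calcification, had 1914 and 1145 CPM, a ratio of 1.67, but 77.1% of its mutant UMIs were in 3 cells. It was held by 18 of 52 mutant and 27 of 38 control cells. Of 24 measured matrix genes 3 were at least 2-fold higher (Col4a1, Col4a2 and Sparcl1) and 1 lower (Bgn). These counts lay near the shares of all genes, 11.7% higher and 3.85% lower.

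The medians of the BMP and TGF-beta, Wnt, Notch, VEGF and flow-responsive lists lay between -0.10 and 0.36, and that of 4 measured Tie and angiopoietin genes at 0.38. Their counts are read against 11.7% of all genes higher and 3.85% lower, and those of the BMP and Notch lists lay near these shares. Of 15 BMP and TGF-beta genes 2 were at least 2-fold higher, Bmpr2 (335 and 139 CPM) and Ltbp1, and the list median was -0.10. Of 9 Notch genes 1 was higher, Mfng, a glycosyltransferase gene that modifies Notch (110 and 37.9 CPM), while the Notch target Hes1 had a ratio of 0.51 (0.38 to 0.69). Of 10 VEGF-related genes only Rcan1, a calcineurin-regulated gene, passed 2-fold, at 86.2 and 210 CPM. Of 9 Wnt, 8 flow-responsive and 21 pan-endothelial genes 0, 0 and 1 were at least 2-fold higher and 0 lower in each. Without the mixed cells 0 of the 21 pan-endothelial genes were higher. Klf2, the flow-induced transcription factor gene, had 2352 and 3018 CPM, a ratio of 0.78 (0.70 to 0.87), and 0.80 in the other cells. Of 20 interferon and antigen presentation genes 5 were higher, Ly6a, Ly6c1, Ly6e, H2-T23 and H2-Q7, and 0 lower, against 11.7% and 3.85% of all genes, with a list median of 0.10. With scaling by a trimmed mean of ratios 3 were higher and 2 lower, among genes with at least 5 UMIs 6 and 5, and without the mixed cells 4 and 0, H2-Q7 then having a ratio of 1.99.

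**Figure D5:**
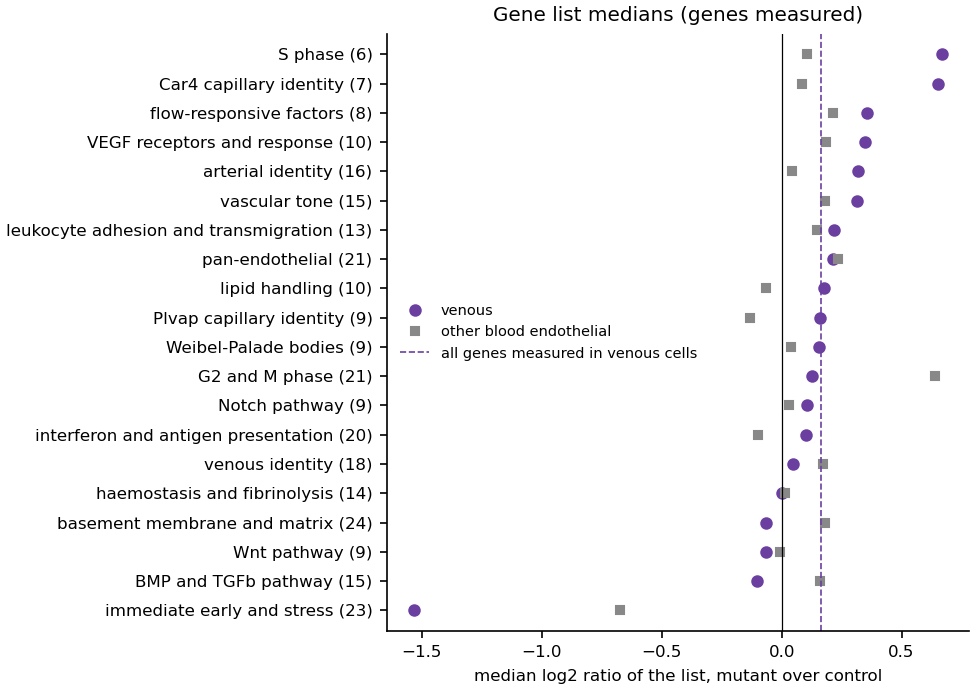
Median log2 ratio, mutant over control, of each gene list with at least 5 measured genes (number in brackets), the marker lists of other cell types left out, in venous cells (circles) and in the other blood endothelial cells (squares). The dashed line is the median of all genes measured in venous cells (0.17), and of the lists drawn the immediate early and stress list lies farthest from it, at -1.54.

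Fabp4 had a ratio of 1.77 (1.28 to 2.48) and Apoe, which was also lower in the other cells (0.55), of 0.34 (0.17 to 0.65). Without the mixed cells Apoe had 12 and 18 UMIs and a ratio of 0.51 (0.22 to 1.11), and 0 of 10 lipid genes were then at least 2-fold lower, against 1 with them. Tmem100, an endothelial gene of BMP9 and ALK1 signalling, had 1069 and 564 CPM, a ratio of 1.90 (1.54 to 2.34), against 0.91 in the other cells. At a venous sum of at least 10 its log2 ratio was 0.44, against 0.92 in all members. Egfl7, an endothelial secreted protein gene used in the choice, had 2635 and 1557 CPM, a ratio of 1.69 (1.49 to 1.92).

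Genes of other cell types were read with and without the mixed cells. Retnla, a secreted protein gene of the resistin family, had 0 mutant and 724 control UMIs, of which 718 were in 1 mixed cell, and without the mixed cells 0 and 5. Lyz2, the lysozyme gene of macrophages and type 2 alveolar cells, had 3 and 353 UMIs, and 3 and 6 without the mixed cells. Fcer1g, an immune receptor subunit gene, had 2 and 50, and 2 and 0. Of 10 measured alveolar genes 9 were at least 2-fold lower in all mutant venous cells, with a median of -3.38 on the log2 scale. Over the 19 alveolar genes, venous cells without the mixed ones held a median of 1.5 UMIs per cell (0 to 7) in the mutant and 13 (3 to 27) in the control. The defining surfactant gene Sftpc had 47 and 323 UMIs in them. Clu, a secreted chaperone gene, had 50 mutant and 1 control UMI in venous cells, 199 and 33.3 CPM in the other blood endothelial cells, and was 8.00 higher on the log2 scale in mutant than in control cells outside the endothelial gate. As a stand-in for free RNA, the summed profile of all barcodes of each library was also subtracted. It was scaled to the summed surfactant and club cell counts of the venous cells, mixed cells included. Counts below 0 were set to 0, so single genes of that sum did not all come to 0. The log2 ratio of Sftpc was then -1.77, against -3.60. That of Jun was -2.16, against -2.11, and that of Scn7a 2.55, against 2.48. Immune markers summed to 19 and 26 UMIs, mural markers to 23 and 26 and fibroblast markers to 11 and 16 in the cells left without the mixed ones. In the same cells mesothelial markers summed to 76 and 6 UMIs, and markers of the mutant epithelium to 112 and 15.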

How the data were processed

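Each library was deposited as whole-number UMI counts, a matrix of 27998 genes by barcodes, made with a 3' kit, per the labels' protocols. Per the submitters' processing notes, Cell Ranger and Seurat were used with mm10; their versions, the annotation and any filter were not given in the sources used here. No cell annotation was used. Kept barcodes had 500 genes or more and less than 10% mitochondrial counts. For each class, counts were added up and divided by the class total (CPM), and ratios are mutant over control. Intervals are exact at 95%: Poisson for levels, Clopper-Pearson for shares, conditional binomial for ratios. For a gene at 0, a floor of 3 counts over all cells of the class was used. Arterial cells held at least 5 arterial UMIs and more than venous ones, with under 5 capillary UMIs, Car4-high cells at least 5 capillary UMIs, and the remaining endothelial cells passed none of these limits.

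The members, the 30 gene lists and the rules were chosen with earlier results of these data known. Named genes were the choosing genes, the 3 most abundant and 3 most different genes per list, the 12 highest and the 12 lowest mutant over control ratios of genes reaching 50 UMIs and 200 CPM, and the 15 largest and 10 smallest ratios of venous over other blood endothelial cells. Before this, genes that moved alike in other blood endothelial cells, by 0.5 or more of the log2 size, were set apart. Genes of other cell types, mitochondrial and ribosomal genes were left out, as were Xist, Tsix, Ddx3y, Eif2s3y, Kdm5d and Uty. Further genes were named with the counts of their lists after their values were seen. Scrublet, run in scanpy 1.11.5 per library, marked 90 mutant cells (2.04%) and 10 control cells (0.241%) and 0 venous cells, so doublets were followed through other cell types' markers. On simulated counts of 4158 genes, 97.0% of the ratio intervals held the true fold and 3.71% of unchanged genes passed 2-fold by counting error alone. The simulated counts had no spread between cells, so they check the computation only. They do not show how often the intervals hold, or 2-fold is passed, for genes with UMIs gathered in few cells. Coordinates are those of GENCODE M21 for the mm10 build. Python 3.11.15, numpy 2.4.6, scipy 1.17.1 and pandas 2.3.3 were used. A total of 13 alternatives were planned, and 3 were added after seeing the data: leaving out the mixed cells, a venous sum of at least 10, and cells with Slc6a2.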

Additional observations from a re-analysis of the deposited data

How the results depend on the processing

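No paired analysis was possible because each group is 1 library. The mutant share of venous cells was 7.10% with a venous sum of at least 8 and 6.09% with at least 10, and stayed within its interval under the other 6 alternatives. Genes higher in venous than in other blood endothelial cells numbered 805 and 951 at those limits, against 523. Genes at least 2-fold higher and lower in mutant venous cells numbered 1545 and 747 among genes with at least 5 UMIs and 114 and 49 with at least 50, and 204 and 91 in cells with Slc6a2. At a venous sum of at least 10, 311 were higher, against 491. The other counts stayed within 1.5 times. Over the genes that the naming rule picked, 6 of 2354 values between libraries and 3 of 400 between classes changed sign from a difference of at least 2-fold. Signs of smaller differences were not counted. Other genes named with their lists were recomputed gene by gene without the mixed cells only, where Il33 (0.06), Cebpb (0.92) and Klf6 (0.07) also turned on the log2 scale. On the log2 scale these were Postn, venous over other, at -0.5876 in the mutant without the mixed cells and at -0.2305 and -0.1527 in the control with a venous sum of at least 8 and at least 10. Between libraries they were Dll4 (1.112) and S100a6 (-0.2699) when cells were thinned before the choice, Kit (-0.01478) at a venous sum of at least 10, Fgl2 (0.1264) in cells with Slc6a2, and Thbs1 and Tyrobp (both 0.01735) without the mixed cells. These settings hold other cells, and further causes were not tested. Depth limits genes under about 20 UMIs, and 38 control cells limit every share.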
